A study of Mus musculus with 1298 samples.

Results

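The group described here holds 42 genes of lipid storage and lipogenesis, chosen by name for their known roles and not by their values. They cover lipid uptake with 6 genes, fatty acid synthesis with 13, glyceride synthesis and droplet formation with 9, the droplet coat with 6, lipolysis with 4, and secreted or accessory proteins of adipocytes with 4. All 42 had a row among the 22938 genes of the bulk table and the 22894 genes of the Smart-seq2 (ss2) table. The 10x table of 17634 genes held 40 of them, without Elovl3 and Lep.

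Fat cells take fatty acids from lipoproteins or build them from acetyl-CoA, join them to a glycerol backbone, and keep the resulting triglyceride in a droplet whose coat controls access by lipases. Brown adipocytes hold many small droplets and burn the released fatty acids to make heat. Much of this gene set is switched on as a progenitor becomes an adipocyte, while the enzymes that make fatty acids and sterols also serve membrane growth in dividing cells.

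The study traced the progeny of Pax7-expressing cells, which include skeletal muscle, dorsal dermis and brown fat. Pax7-CreER:R26R-stop-EYFP embryos received tamoxifen through the pregnant mother at E9.5 (75 µg per g body weight), so that YFP marks cells in which Pax7 drove the recombinase at that time and their descendants. Embryos of a day were pooled without limbs, viscera and head on E12.5, on E14.5 or on E16.5, and sorted YFP+ cells were profiled by 10x (1 library a day, 3' counts of unique molecular identifiers, UMIs) and by ss2 (full-length reads of cells in plates). Bulk libraries made with the ss2 chemistry from YFP+ cells number 18, with 6 grown in DMEM, 6 grown in ADM and 6 freshly sorted.

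The cultured libraries came from E14.5 cells sorted as Pdgfra+/Thy1- or Pdgfra+/Thy1+, grown in DMEM with 10% serum or, once confluent, in an adipogenic differentiation medium (ADM), with triplicate wells per sort and medium. The fresh libraries came from E16.5 cells sorted as Pdgfra+/Thy1-, Pdgfra+/Thy1+ or Pdgfra-/Cd36+, with technical duplicates of each. Embryonic day is given here as in the sample labels, whereas the study's text places the sequenced Pdgfra+/Thy1- sort at E14.5, and the sources used here do not settle which holds. The column names of the bulk table have lost the sign after Thy1, so the paired Thy1 sorts are called set A and set B here after the spelling of the names, no sign is assigned, and no test was run between them. A letter need not mean the same sort in culture and in fresh cells. Thy1 itself was higher in set B of the cultures and in set A of the fresh cells. Wells and duplicates share a cell pool, so p-values measure only the spread between these libraries. Animals, litters and sorting days are not replicated.

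Bulk totals ran from 3390851 counts in ADM set B replicate 3 to 35332908. Bulk levels are CPM of the library total. The 42 genes took 10.5 to 11.2% of all counts in ADM set A, 0.519 to 0.536% in ADM set B, 1.43 to 2.06% in DMEM set A, 0.224 to 0.240% in DMEM set B, 1.69 to 1.79% in fresh Cd36+ cells and 0.216 to 0.343% in fresh Pdgfra+ cells. Mitochondrial transcripts moved with that share, at 17.6 to 20% in ADM set A against 7.82 to 8.44% in set B, 9.60 to 14.9% in DMEM set A against 7.25 to 7.73% in set B, and 15.9 to 20.8% in Cd36+ against 3.48 to 4.35% in Pdgfra+ cells. Their part in the results was not tested. In bulk RNA, more cells of a type and more RNA per cell cannot be told apart.

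Of 3916 single cells, 3852 passed a mitochondrial limit of 8%, 2921 in 10x and 931 in ss2. The median 10x cell held 5930 UMIs on E14.5, 2185 on E12.5 and 1607.5 on E16.5, so that low genes were best seen on E14.5. Clusters were built without the 42 genes and named from markers that hold none of them. Brown adipocyte (BA)-like cells expressed all 9 of their markers, among them Cox7a1, Pparg and Prdm16, at a summed 8604 counts per 1000000 counts of the class (CPM, here of UMIs) against 90.3 in late progenitor (LP)-like cells of the same library. The other names are EM-like and LM-like (early and late muscle), DF-like (dermal fibroblast), N-like (neuronal), NG-like (neural progenitor or glia) and PE-like (pericyte), while an E12.5 cluster led by Zfhx3, Hmga2, Msx1 and Alx4 reached no name and is called cluster 2.

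At E16.5, BA-like cells carried more message for nearly every step of lipid handling than LP-like cells, apart from the making of new fatty acids. Of the 940 cells of the 10x library, 16.7% were BA-like and gave 502682 UMIs, and 24.9% were LP-like and gave 376497. Of the 36 members with at least 10 UMIs over both classes, 29 were at least 2-fold higher in BA-like cells and 4 at least 2-fold lower, where 24.2% and 25.7% of all 7055 genes were. The median log2 ratio was 2.19 over those members and 0.04 over all genes. Both classes come from 1 library, so the ratios below have 95% exact intervals that cover counting error only, and no test. Fabp4, Gpd1, Adipoq, Cd36, Pnpla2, Cidec and Mrap were among the genes that set the BA-like cluster apart, so their direction is a description of that cluster. They are included in the counts of members given here and over both platforms.

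All 6 uptake genes were higher in BA-like cells. Fabp4, a carrier of fatty acids inside the cell, stood at 4802 CPM against 278.9 in the LP-like class, a ratio of 17.2 (interval 14.2 to 21.1). Its relative Fabp5 stood at 2556 against 560.4, a ratio of 4.56 (3.94 to 5.30). The surface transporter Cd36 had a ratio of 2.80 (1.82 to 4.46), Lpl, the lipase that frees fatty acids from lipoproteins, 2.50 (1.78 to 3.57), and Angptl4, a secreted inhibitor of that lipase, 3.64 (1.59 to 9.72). The glycerol channel Aqp7 had 22 UMIs against 0, at least 5.49-fold higher when the floor is 3 counts.

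Glyceride synthesis, droplet coat and lipolysis showed the widest gaps. Gpd1, which makes the glycerol phosphate backbone, stood at 652.5 CPM against 7.97, a ratio of 81.9 (27.8 to 399.1). Pnpla2, the lipase that opens triglyceride breakdown, stood at 236.7 against 2.66 (1 UMI), and Lipe, which acts next, at 260.6 against 5.31 (2 UMIs). The droplet coat gene Plin1 had 54 UMIs against 0, at least 13.5-fold higher, and Cidea and Cidec, whose proteins make droplets fuse and grow, had 74 against 1 and 68 against 1. With so few UMIs in LP-like cells the intervals of these ratios are wide. Plin2, a droplet coat protein found in many cell types, was closest between the classes in its group, with 83.55 against 42.5 CPM and a ratio of 1.97 (1.08 to 3.75).

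Fatty acid synthesis split. Thrsp, a lipogenic gene of the liver and fat, Acsl1, which attaches CoA to fatty acids, Srebf1, the sterol-element factor of lipogenesis, Mlxipl, the carbohydrate-responsive factor, and Me1, a source of NADPH, were at least 2-fold higher in BA-like cells. For Me1, with 14 UMIs against 4 and a ratio of 2.62 (0.823 to 10.94), the interval includes equality. The desaturase Scd2 was lower, with 46 UMIs against 87 and a ratio of 0.396 (0.271 to 0.572), as was Fasn, the fatty acid synthase, with 15 against 26 and a ratio of 0.432 (0.213 to 0.847). The elongase Elovl6 (0.437, 0.146 to 1.2) and the desaturase Scd1 (0.468, 0.121 to 1.62) were also under the 2-fold line, with intervals that include equality. Acly, which makes cytosolic acetyl-CoA, had a ratio of 1.06 (0.611 to 1.87), and Acaca, which carboxylates it, 1.09 (0.475 to 2.60).

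**Figure D1:**
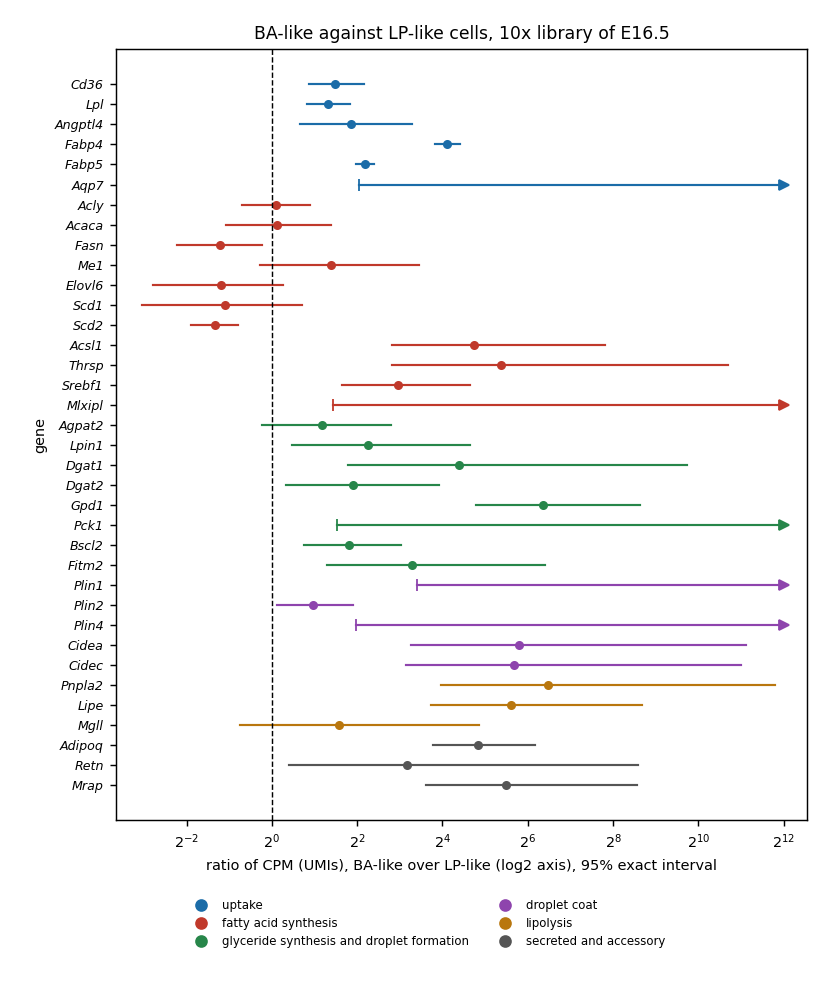
Ratio of CPM in BA-like over LP-like cells of the E16.5 10x library (log2 axis) for each member, with bars for the 95% exact interval of the counts, coloured by role. Bars with an arrow mark genes without a UMI in LP-like cells. Genes of uptake, glyceride synthesis, coat and lipolysis sit to the right of 1, while Scd2 at 0.396 and Fasn at 0.432 sit to the left.

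The same comparison over both platforms used 4 sums of counts, BA-like and LP-like cells in 10x and in ss2, with the platform as a block. All deposited cells were kept, which gave 61 BA-like and 88 LP-like ss2 cells, because the mitochondrial limit took 51 ss2 cells, all at E16.5, and would leave 14 BA-like ones. By the quasi-likelihood test of edgeR, adjusted over all genes by Benjamini and Hochberg, 32 of the 39 members tested were higher in BA-like cells and 0 lower, where 23.2% and 20% of all genes were. Fasn and Scd2 were lower at an unadjusted p under 0.05, and DESeq2 called 30 members higher and 1 lower. The fit leaves 1 residual degree of freedom a gene, and the spread is shared over genes.

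Pnpla2 stood at 240.8 CPM in 10x BA-like cells and 1153 in ss2, against 2.80 and 14.8 in LP-like cells (log2 fold change 6.68, adjusted p = 2.87e-23). Fabp4 stood at 4978 and 3161 against 293.8 and 73.4 CPM (5.04, adjusted p = 4.17e-09). Srebf1 stood at 112.6 and 787.9 against 13.99 and 89.5 CPM (3.44, adjusted p = 1.73e-10). In each of these, both BA-like sums were above the LP-like sum of the same platform. Pnpla2 and Fabp4 were among the genes that set the BA-like cluster apart, so their values and p-values describe that cluster and add no separate support.

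Scd2 had 91.3 and 104.8 CPM in BA-like against 243.4 and 186.6 in LP-like cells (log2 fold change -0.81, adjusted p = 0.0671), and Fasn 29.1 and 48.9 against 72.8 and 98.1 (-0.81, adjusted p = 0.0891). Acly had 66.01 and 197.5 against 67.2 and 362.99 CPM (-0.27, adjusted p = 0.622). None of these 3 passed the test. Scd1 differed in direction between the platforms, with 9.71 against 22.4 CPM in 10x and 61.7 against 26.6 in ss2 (1.02, adjusted p = 0.0802). So did Me1, with 27.2 against 11.2 CPM in 10x and 34.99 against 40.3 in ss2 (0.47, adjusted p = 0.436).

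Genes of neighbouring pathways were counted by list. In the 10x library 16 of 19 genes of fatty acid activation and oxidation were at least 2-fold higher in BA-like cells and 0 lower, whereas of 19 genes of cholesterol synthesis 3 were higher and 10 lower. Cyp51 (ratio 0.0908) and Sqle (0.220) were among the lower ones. Over both platforms the edgeR test gave 17 oxidation genes higher and 1 lower, and 3 cholesterol genes higher and 8 lower, with Cyp51 at a log2 fold change of -2.42 and Sc5d at -2.39, and Acat2 higher at 2.72. Among adipogenic regulators, 11 were higher and 2 lower. Pparg, Cebpa, Prdm16 and Ppara of that list are also BA-like markers, so their direction is a description of that cluster.

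Free RNA was read from cell types that should lack these genes. With each cell of the E16.5 10x library thinned to 2000 UMIs, Fabp4 was found in 98.6% of BA-like, 30.8% of LP-like, 17.5% of DF-like and 7.32% of EM-like cells (99.4, 20.5, 9.62 and 5.16% unthinned). Adipoq, the adiponectin gene, was found in 63.6% of BA-like, 5.13% of LP-like, 2.50% of DF-like and 2.44% of EM-like cells after thinning. The shares of Adipoq in DF-like and EM-like cells were thus close, but they rest on very few positive cells. For Fabp4 the LP-like share was the higher one beside muscle. The part of free RNA in these shares was not tested. The shares rest on 140 BA-like, 39 LP-like, 40 DF-like and 41 EM-like cells, since 10.8%, 83.3%, 87.2% and 73.5% of them were shallower and were left out.

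**Figure D2:**
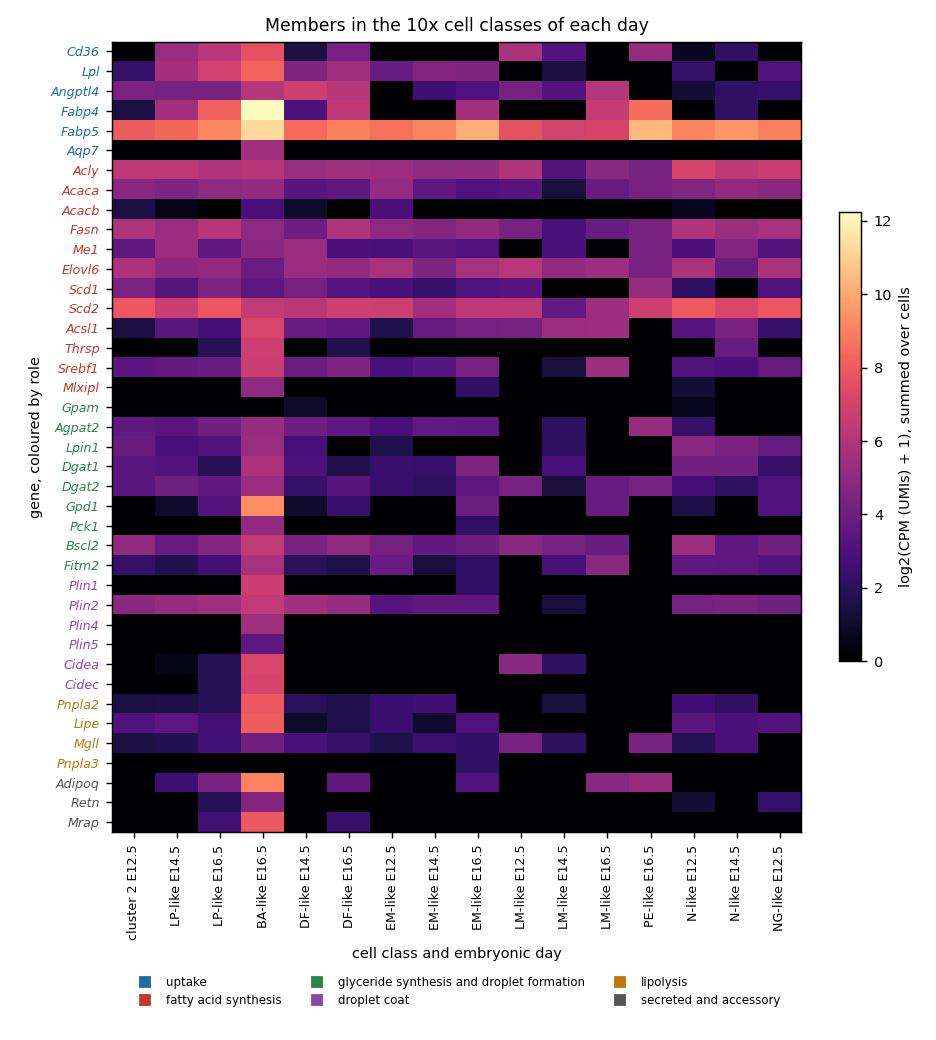
Heat map of log2(CPM + 1) for the members in the 10x cell classes of at least 20 cells, by embryonic day (1 library a day). The BA-like column at E16.5 is highest for Fabp4 (4802 CPM) and most members, while Fabp5, Scd2 and Acly are seen in every class.

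Several members were counted well outside BA-like cells in the 10x libraries. Fabp5 was counted in all classes, from 122.4 CPM in LM-like cells of E14.5 to 1376 in PE-like, 1136 in EM-like and 2556 in BA-like cells of E16.5. Scd2, at 91.5 in BA-like cells, reached 229.1 in cluster 2, 243.3 in N-like and 232.2 in NG-like cells of E12.5. Acly ran from 8.16 in LM-like cells of E14.5 to 134.3 in N-like cells of E12.5, with 67.6 in BA-like cells. Plin4, Plin5 and Aqp7, a pair of droplet coat genes and the glycerol channel, had UMIs in the BA-like sum alone among the classes of at least 20 cells, Plin5 with 5 UMIs.

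Freshly sorted cells, labelled E16.5, were compared between Pdgfra-/Cd36+ cells and the Pdgfra+ cells of both Thy1 sorts. If the Thy1- sort was of E14.5, day and sort cannot be told apart in its libraries. The markers of the BA-like class summed to 21650 to 23030 CPM in Cd36+ cells, with all 9 present, against 95.2 to 647 in Pdgfra+ cells. Car3 made up most of these sums, and the other 8 markers summed to 1911 to 1961 against 27.4 to 73.2 CPM. Endothelial markers (6 of 6 present) summed to 102.8 to 122.1 against 97.99 to 104.7 CPM, macrophage markers (7 of 7) to 13.7 to 14.6 against 23.5 to 43.2, and erythroid markers (6 of 6) to 278.3 to 506.3 against 533.5 to 966.9. Chondrocyte markers (4 of 4 present) summed to 71.8 to 87.6 against 194.7 to 462.1 CPM, and keratinocyte markers (5 of 5) to 2.76 to 6.52 against 4.54 to 25.97. Within the endothelial list Pecam1 stood at 79.1 and 104.8 CPM against 32.2 to 37.2, and Tek at 1.85 and 0.789 against 42.1 to 56.9. The part of those cells in the results was not tested. Cd36 was itself the sorting marker and is not counted as a finding.

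Averaged over the name sets and leaving out Cd36, 35 of 41 members were higher in Cd36+ cells and 3 lower by edgeR's quasi-likelihood test, where 26.9% and 26.4% of 17545 genes were. With the Thy1 sorts joined into 1 group of 4 libraries, 33 were higher and 2 lower. The median log2 fold change was 3.50 over those members and 0.01 over all genes (3.21 over the 42 and -0.29 with library totals alone, when the higher share of all calls was 36.7% in place of 50.4%). In 35 of the 41 both Cd36+ libraries were above all 4 Pdgfra+ libraries and in 3 below, where 22.2% and 36.8% of all genes were. The other 5 uptake genes and all members of glyceride synthesis and droplet formation, coat and lipolysis were higher, as were 3 of 4 secreted or accessory genes, while fatty acid synthesis had 8 higher and 3 lower of 13.

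Plin5, a droplet coat protein of tissues that burn fat, stood at 92.7 and 92.1 CPM in Cd36+ cells against 0.113, 0.116, 1.85 and 1.51 in Pdgfra+ cells (log2 fold change 8.00 ± 0.18 SE, adjusted p = 1.65e-08). Cidea stood at 541.1 and 429.8 against 1.69, 0.751, 7.07 and 7.13 CPM (7.64 ± 0.22). Cidec stood at 297.4 and 372.1 against 1.09, 1.16, 6.85 and 5.91 (7.27 ± 0.14, adjusted p = 1.19e-08). These droplet genes were low in all 4 Pdgfra+ libraries beside the Cd36+ ones, and the duplicates of a sort lay near each other. Within Pdgfra+ cells, both set B libraries were above both set A libraries for each of them, with no test run.

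Plin1 stood at 83.3 and 91.6 CPM against 1.21, 1.21, 2.75 and 3.02 (5.85 ± 0.15), and Plin2 at 209.2 and 223.4 against 80.3, 78.1, 119.95 and 114.7 (1.47 ± 0.10, adjusted p = 2.14e-06). Plin2 was thus the coat gene with the smallest change, and it was well expressed in Pdgfra+ cells. Gpd1 stood at 1780 and 1997 CPM against 8.47, 6.41, 34.8 and 47.2 (7.06 ± 0.17). Pck1, which feeds glycerol synthesis from small precursors, stood at 250.1 and 181.9 against 1.09, 1.04, 5.11 and 5.15 (6.84 ± 0.19). Dgat2, which adds the last fatty acid to a triglyceride, stood at 79.9 and 80.8 against 16.4, 14.7, 35.3 and 33.5 (2.11 ± 0.12, adjusted p = 5.17e-07).

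Pnpla2 stood at 806.2 and 837.3 CPM in Cd36+ cells against 6.32, 7.91, 24.5 and 19.6 (6.35 ± 0.15), and Lipe was higher by 5.83 ± 0.14 on the log2 scale. Adipoq stood at 1668 and 1228 against 6.02, 4.10, 53.5 and 64.9 CPM (6.70 ± 0.21). Mrap, an accessory protein of the melanocortin 2 receptor, stood at 282.8 and 337.99 against 0.904, 1.21, 7.97 and 5.15 (7.19 ± 0.19). Lep, the leptin gene, was at 1.43 CPM or less in every fresh library and did not pass (adjusted p = 0.123).

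Uptake genes were higher too, with smaller gaps where Pdgfra+ cells had levels of their own. Fabp4 stood at 4576 and 3935 CPM against 31.7, 30.9, 161.6 and 200.2 (6.13 ± 0.15, adjusted p = 2.05e-08). Lpl stood at 1145 and 974.7 against 106.5, 96.01, 405.7 and 431.3 (2.68 ± 0.13), and Fabp5 at 895.1 and 1040 against 241.7, 259.2, 279.8 and 315.8 (2.13 ± 0.11). Angptl4 stood at 379.7 and 367.1 against 354.5, 275.5, 125.1 and 82.2 CPM (1.36 ± 0.17, adjusted p = 8.82e-05), so that replicate 1 of Pdgfra+ set A came close to the Cd36+ libraries. Cd36, the sorting marker, stood at 1510 and 1262 against 77.1, 51.6, 214.6 and 280.98.

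Acly, Fasn and Scd2 went the other way. Acly stood at 118.5 and 146.6 CPM in Cd36+ cells against 182.1, 215.98, 398.4 and 374.6 in Pdgfra+ cells (log2 fold change -0.76 ± 0.13, adjusted p = 0.00092). Fasn stood at 71.2 and 92.2 against 151.4, 155.5, 155.8 and 208.9 (-0.73 ± 0.16, adjusted p = 0.0031), and Scd2 at 176.5 and 232.1 against 426.6, 535.8, 471.5 and 700.4 (-1.08 ± 0.20, adjusted p = 0.00122). Neither library of Cd36+ cells overlapped the Pdgfra+ libraries for any of them.

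Other genes of the same route were higher or did not differ by the test. Scd1 stood at 148.8 and 110.2 CPM against 23.7, 32.04, 48.8 and 58.3 (2.06 ± 0.19, adjusted p = 1.21e-05), and Srebf1 at 448.4 and 482.4 against 78.6, 83.1, 87.01 and 115.2 (2.67 ± 0.14, adjusted p = 2.63e-07). Thrsp stood at 331.3 and 244.1 against 1.28, 1.79, 4.89 and 5.67 (6.99 ± 0.21). Mlxipl and Acacb, the mitochondrial partner of Acaca, were higher by 5.67 and 4.76 on the log2 scale and Acaca by 0.59 (adjusted p = 0.00413), while Me1 (-0.33, adjusted p = 0.266) and Elovl6 (-0.31, adjusted p = 0.12) did not pass.

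**Figure D3:**
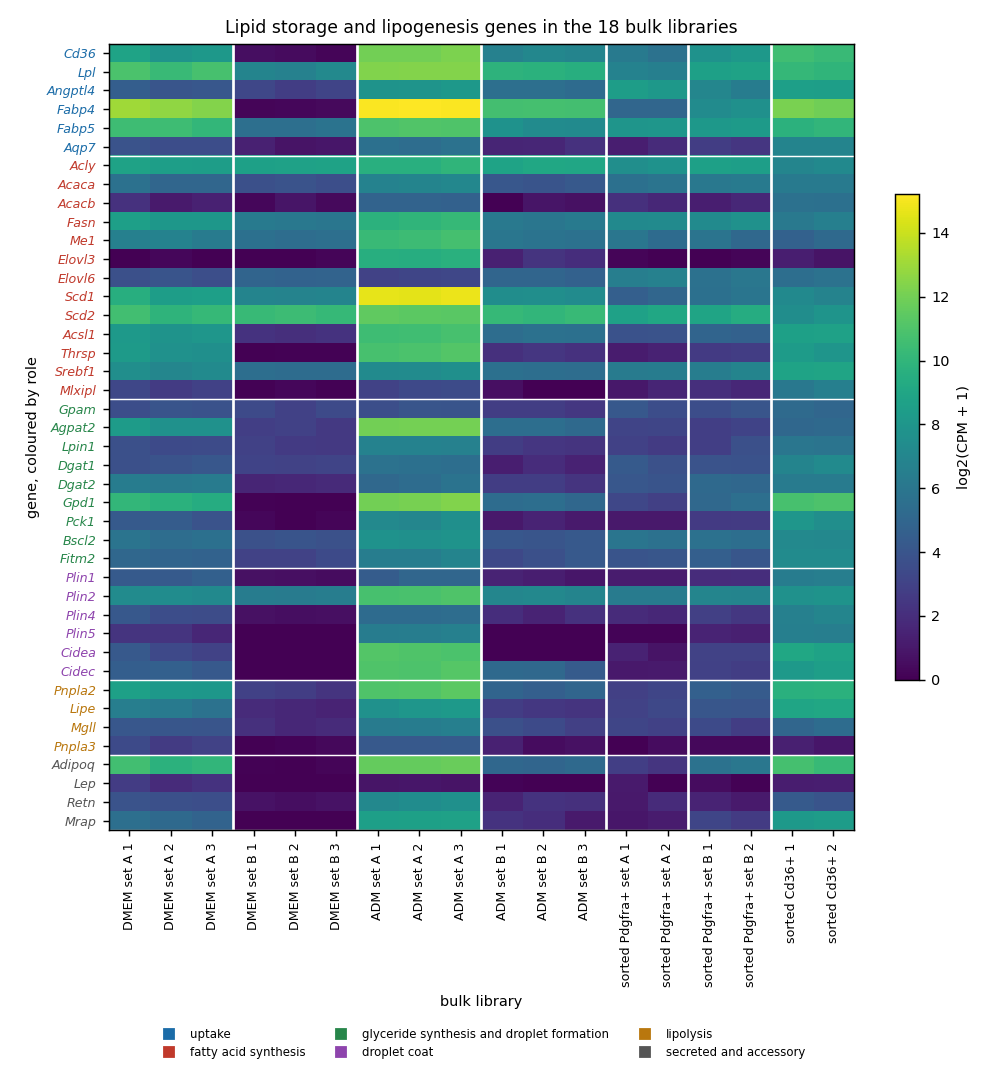
Heat map of log2(CPM + 1) for the 42 members in the 18 bulk libraries, gene names coloured by role. ADM set A and Cd36+ libraries are bright for droplet coat and lipolysis genes (Cidea 1948 to 2292 CPM and 429.8 to 541.1 CPM), while Acly and Scd2 are bright in all cultured libraries.

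The pathway lists around the members also split in the fresh sorts. Of 24 genes of fatty acid activation and oxidation, 19 were higher in Cd36+ cells and 2 lower, led by Cpt1b at a log2 fold change of 6.56, the muscle-type gate of fatty acid entry into mitochondria. Of 20 genes of cholesterol synthesis, 5 were higher and 14 lower, led by Sc5d (-3.11), Cyp51 (-2.92) and Sqle (-2.49), with a list median of -1.18. Of 14 adipogenic regulators, 11 were higher and 2 lower, led by the coactivator Ppargc1a (6.20) and Klf15 (6.15). Of 24 further glyceride and droplet genes, 12 were higher and 3 lower, with G0s2, an inhibitor of Pnpla2, at 4.92 and Agpat4 at -4.67.

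**Figure D4:**
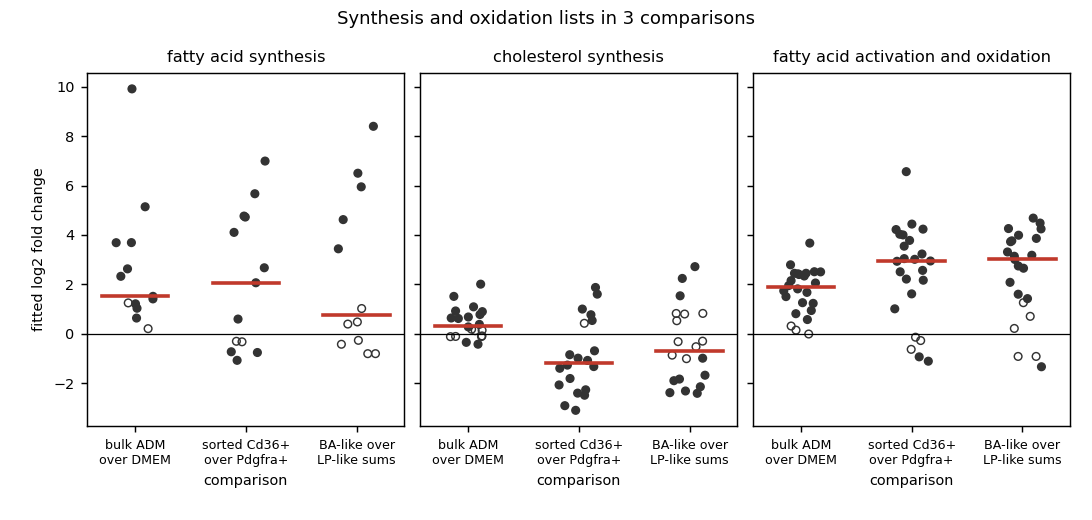
Log2 fold changes of single genes (points, filled where the adjusted p is under 0.05) for the lists of fatty acid synthesis, cholesterol synthesis, and fatty acid activation and oxidation, with the list median as a red line. In the fresh sorts the cholesterol list has a median of -1.18, below 0, while the oxidation list lies mostly above 0.

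Promoter sequence was set beside these groups for 4 members: Cd36 and Plin5, higher in Cd36+ cells, and Acly and Fasn, lower there. The sequences are those of RefSeq for GRCm38.p6, 250 bases before to 50 bases after a listed start, and all 4 genes lie on the minus strand. Positions are chr5:17835847-17836146 for Cd36, chr17:56117499-56117798 for Plin5, chr11:100527951-100528250 for Acly and chr11:120824498-120824797 for Fasn. In GENCODE vM21 the windows of Plin5, Acly and Fasn cover the starts of genes that span chr17:56111601-56117596, chr11:100476353-100528000 and chr11:120805846-120824547, whereas the Cd36 window lies inside its gene (chr5:17781690-17888801), at an internal start that RefSeq lists. Capitals mark AGGTCA, the core read by nuclear receptors such as Pparg with Rxra, and CCAAT, each on either strand, so that a core may read TGACCT and a CCAAT box ATTGG.
Cd36: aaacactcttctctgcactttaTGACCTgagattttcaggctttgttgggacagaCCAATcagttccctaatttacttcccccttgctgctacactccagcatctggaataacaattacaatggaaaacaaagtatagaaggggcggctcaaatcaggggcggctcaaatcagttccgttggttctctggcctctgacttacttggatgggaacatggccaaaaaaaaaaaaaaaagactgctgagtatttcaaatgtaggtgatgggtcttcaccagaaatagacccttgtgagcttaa
Plin5: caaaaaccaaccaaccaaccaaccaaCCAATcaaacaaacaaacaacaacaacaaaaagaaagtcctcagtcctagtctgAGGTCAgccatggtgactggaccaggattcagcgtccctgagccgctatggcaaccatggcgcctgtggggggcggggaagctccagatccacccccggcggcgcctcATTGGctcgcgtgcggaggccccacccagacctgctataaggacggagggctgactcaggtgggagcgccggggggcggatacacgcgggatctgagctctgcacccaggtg
Acly: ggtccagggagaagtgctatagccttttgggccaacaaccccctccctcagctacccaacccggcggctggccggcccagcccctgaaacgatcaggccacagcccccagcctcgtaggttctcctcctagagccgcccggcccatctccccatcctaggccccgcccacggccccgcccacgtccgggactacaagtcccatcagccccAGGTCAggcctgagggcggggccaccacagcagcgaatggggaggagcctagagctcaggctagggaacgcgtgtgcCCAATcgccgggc
Fasn: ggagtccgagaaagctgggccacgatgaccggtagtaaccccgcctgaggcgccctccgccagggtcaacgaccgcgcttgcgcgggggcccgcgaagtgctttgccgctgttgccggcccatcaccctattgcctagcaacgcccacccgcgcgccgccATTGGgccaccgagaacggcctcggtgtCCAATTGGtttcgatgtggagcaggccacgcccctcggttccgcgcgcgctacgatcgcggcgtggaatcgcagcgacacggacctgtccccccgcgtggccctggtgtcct

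The AGGTCA core was present in the windows of Cd36, Plin5 and Acly and in none for Fasn, so the letters did not follow the direction of change. Over the table, 12 of 43 promoters of 30 members held AGGTCA (27.9%) against 16.3% of all 32851 promoters, and the members were Acacb, Acly, Aqp7, Bscl2, Cd36, Elovl6, Gpam, Lpin1, Plin2 and Plin5. The direct repeat of that core with 1 base between its copies was in 0 member promoters and in 0.0396% of all. CCAAT was in 39.5% of member promoters against 37.4%. The sterol element TCACNCCAC was in those of Acsl1 and Mlxipl (4.65% against 1.24% of all), and the E-box CACGTG in 9.3% against 7.15%. A match is a run of letters in a window, and its absence says nothing of the factor.

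ADM against DMEM asked which members respond to the adipogenic medium. Averaged over the name sets, 36 of 42 members were higher in ADM and 0 lower by edgeR's quasi-likelihood test, where 24.5% and 27.1% of 12029 genes were. With the name sets joined into 6 against 6 libraries, 5 members passed (Elovl3, Scd1, Me1, Angptl4 and Plin2), where 2.75% and 2.94% of all genes were higher and lower, and 27 members had an unadjusted p under 0.05. The first fit measures well-to-well spread within a name set, and the second also counts the gap between the sets. No member was lower at an unadjusted p under 0.05, and DESeq2 called 39 higher and 0 lower. The median log2 fold change was 2.61 over the members and -0.03 over all genes, which library totals alone as scaling moved to 2.09 and -0.56. That scaling moved the higher share of all calls from 47.6% to 13.2%, with 33 members higher and 1 lower.

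The sets differed far more than the wells. All 3 ADM set A libraries were above all 3 DMEM set A libraries for 35 members and below for Dgat2, Elovl6 and Lep, where 9.68% and 70% of all genes were. Against DMEM set B, 41 members were above and Elovl6 below, where 13.6% and 69.9% of all genes were. ADM set B was above DMEM set B for 29 members and below for Dgat1 and Gpam, where 17.9% and 15.8% were, but above DMEM set A for Acly, Angptl4, Elovl3 and Elovl6 and below it for 36 members, where 27% and 19.4% were. Over all 12 libraries, Acly, Angptl4 and Elovl3 had every ADM library above every DMEM library, where 0.474% of all genes did.

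The sets also differed in markers. The BA-like markers summed to 17350 to 19940 CPM in ADM set A and 11480 to 16400 in DMEM set A, of which Car3 made up most, against 215.3 to 280.7 in ADM set B, with 1 of 9 at 0, and 6.17 to 7.13 in DMEM set B, with 2 at 0. The 8 markers other than Car3 summed to 5297 to 5800 CPM in ADM set A, 240.7 to 414.7 in DMEM set A, 13.9 to 17.6 in ADM set B and 6.02 to 6.46 in DMEM set B. Erythroid markers were at 0 to 0.129 CPM in all cultures, and endothelial markers at 13.1 to 30.96. Over all cultures chondrocyte markers summed to 9.16 to 34.3 CPM, macrophage markers to 0.510 to 4.25 and keratinocyte markers to at most 0.578. The part of the mix of cells in the results was not tested.

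Fatty acid synthesis had 11 of 13 members higher in ADM. Scd1 stood at 25557, 25217 and 28327 CPM in ADM set A and 176.6, 180.3 and 162.5 in set B, against 735.6, 351.9 and 390.7 in DMEM set A and 115.1, 111.5 and 114.3 in set B (log2 fold change 3.69 ± 0.17, adjusted p = 5.4e-11). Elovl3, an elongase induced in cold-exposed brown fat, stood at 732.7, 709.9 and 810.6 CPM in ADM set A and 1.68, 3.94 and 2.95 in set B, against 0.205 or less in all 6 DMEM libraries (9.92 ± 0.42, adjusted p = 2.39e-11). Thrsp stood at 1805, 1920 and 2280 in ADM set A and 3.36, 4.22 and 3.54 in set B, against 317.5, 203.4 and 191.2 and 0, 0.0762 and 0.0443 in DMEM (5.14 ± 0.28). In each, ADM was above DMEM in both sets and ADM set B lay far below ADM set A.

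Acly, Fasn and Scd2, which were lower in fresh Cd36+ cells, were higher in ADM. Acly stood at 781.6, 785.4 and 975.8 CPM in ADM set A and 449.03, 528.7 and 524.6 in set B, against 437.1, 365.2 and 360.2 in DMEM set A and 394.2, 426.8 and 442.7 in set B (1.21 ± 0.09, adjusted p = 8.25e-09). Fasn stood at 891.2, 990.6 and 1172 and at 71.6, 62.97 and 74.9 in ADM, against 387.8, 261.1 and 261.6 and 71.95, 68.7 and 63.2 in DMEM (1.41 ± 0.12, adjusted p = 4.46e-08). Scd2 stood at 2962, 2729 and 2570 and at 1185, 1049 and 1211 in ADM, against 1583, 959.1 and 1174 and 1205, 1373 and 1192 in DMEM (1.03 ± 0.12, adjusted p = 2.74e-06). For Fasn and Scd2 the CPM ranges of the set B libraries of the 2 media overlapped, and the gap was seen in set A.

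Srebf1 was higher by 0.63 ± 0.10 on the log2 scale (adjusted p = 6.89e-05), with 154.1, 158.6 and 187.1 and 47.9, 45.1 and 43.1 CPM in ADM against 185.4, 124.99 and 153.1 and 44.1, 40.95 and 40.7 in DMEM. Its set A libraries overlapped on the CPM scale, and with library totals alone as scaling it was at 0.11 and did not pass. Me1 was at 1262 to 1714 CPM in ADM set A against 78.9 to 106.2 in DMEM set A, and at 49.6 to 60.8 against 42.5 to 48.4 in set B (2.63 ± 0.10). Elovl6 (0.20, adjusted p = 0.0613) and Mlxipl (1.25, adjusted p = 0.0994) did not pass.

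All 6 uptake genes were higher in ADM. Fabp4 stood at 36587, 38229 and 35466 CPM in ADM set A and 1619, 1719 and 1638 in set B, against 8589, 6539 and 5445 and 0.144, 0.191 and 0.310 in DMEM (8.16 ± 0.17, adjusted p = 1.37e-14). Cd36 stood at 3970, 3975 and 4809 and 102.2, 129.3 and 116.2 in ADM, against 456.7, 236.1 and 273.5 and 0.481, 0.381 and 0.133 in DMEM (6.58 ± 0.22, adjusted p = 1.68e-12). In DMEM set B these genes had at most 10 counts a library, so the fitted folds rest on very low denominators.

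Lpl stood at 5203, 5295 and 5479 and 904.2, 847.3 and 732.3 CPM in ADM, against 1960, 1280 and 1786 and 113.7, 103.1 and 140.3 in DMEM (2.76 ± 0.12). Angptl4 stood at 226.9, 234.04 and 274.1 and 46.3, 45.5 and 38.3 against 22.9, 15.4 and 16.4 and 8.52, 5.87 and 7.57 (3.68 ± 0.13, adjusted p = 2.33e-12), and it was among the few members whose ADM libraries were all above all DMEM libraries. Fabp5 stood at 2004, 2193 and 2104 and 215.4, 159.8 and 154.2 against 1456, 1413 and 1096 and 45.6, 46.5 and 54.2 (1.79 ± 0.11).

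Glyceride synthesis and droplet formation had 8 of 9 members higher. Gpd1 stood at 4022, 4434 and 5259 CPM in ADM set A and 41.4, 44.7 and 33.6 in set B, against 1071, 831.6 and 690.1 and 0.0481, 0 and 0 in DMEM (7.11 ± 0.22, adjusted p = 6.18e-13). Agpat2, which adds the middle fatty acid of a triglyceride, stood at 4064, 4177 and 4291 and 44, 44.1 and 35.98 against 330.4, 203.8 and 205.3 and 6.16, 6.55 and 4.69 (3.98 ± 0.15). Pck1 was higher by 3.82 ± 0.31, and Dgat2 by 0.73 ± 0.14 (adjusted p = 0.000323), though Dgat2 in set A was at 34.9, 40.3 and 55.6 in ADM against 84.6, 69.4 and 78.3 in DMEM. Dgat2 was thus lower in CPM in set A and higher in set B, at 5.81, 5.90 and 3.83 against 1.97, 2.29 and 2.48. With library totals alone as scaling Dgat2 was at 0.22 and did not pass, and Dgat1, which does the same step, was at -0.05 in place of 0.48.

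Of the 6 coat genes, 4 were higher in ADM. Plin2 stood at 1785, 1879 and 2110 CPM in ADM set A and 123.9, 137.1 and 117.96 in set B, against 159.8, 169.8 and 148.1 and 84.4, 79.05 and 85.1 in DMEM (2.63 ± 0.07, adjusted p = 2.54e-13). Plin1 stood at 20.7, 31.03 and 32.2 and 1.81, 1.41 and 0.885 against 18.7, 18.5 and 24.9 and 0.578, 0.533 and 0.399 (1.5 ± 0.22, adjusted p = 2.77e-05), with set A overlapping on the CPM scale. Plin5 stood at 84.04, 85.6 and 97.4 in ADM set A against 3.82, 3.95 and 2.12 in DMEM set A, and Cidea at 2292, 2049 and 1948 against 18.1, 9.24 and 7.08. Both had 0 counts in all 6 set B libraries, so they have no usable estimate over the sets, and without them the members' median was 2.54. Cidec stood at 2065, 2037 and 2347 and 35.9, 33.9 and 19.5 in ADM, against 22.3, 24.2 and 18.4 in DMEM set A and 0 counts in DMEM set B.

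Lipolysis genes were all 4 higher. Pnpla2 stood at 2064, 2201 and 2683 CPM in ADM set A and 29.4, 23.8 and 29.8 in set B, against 394.3, 271.96 and 260.7 and 6.59, 5.71 and 3.94 in DMEM (3.14 ± 0.15). Lipe was higher by 1.99, Mgll, which acts on monoglycerides, by 2.67, and Pnpla3 by 2.59 on the log2 scale. Adipoq stood at 3171, 3188 and 3406 and 33.03, 29.9 and 35.4 against 1535, 879.5 and 1041 and 0.0481, 0.0381 and 0.177 (5.48 ± 0.21, adjusted p = 7.19e-12). Retn, the resistin gene, was higher by 3.51 on the log2 scale. Mrap stood at 379.9, 395.8 and 426.8 and 3.74, 2.95 and 1.18 against 46.7, 35.3 and 27.7 in DMEM set A and 0 counts in DMEM set B.

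**Figure D5:**
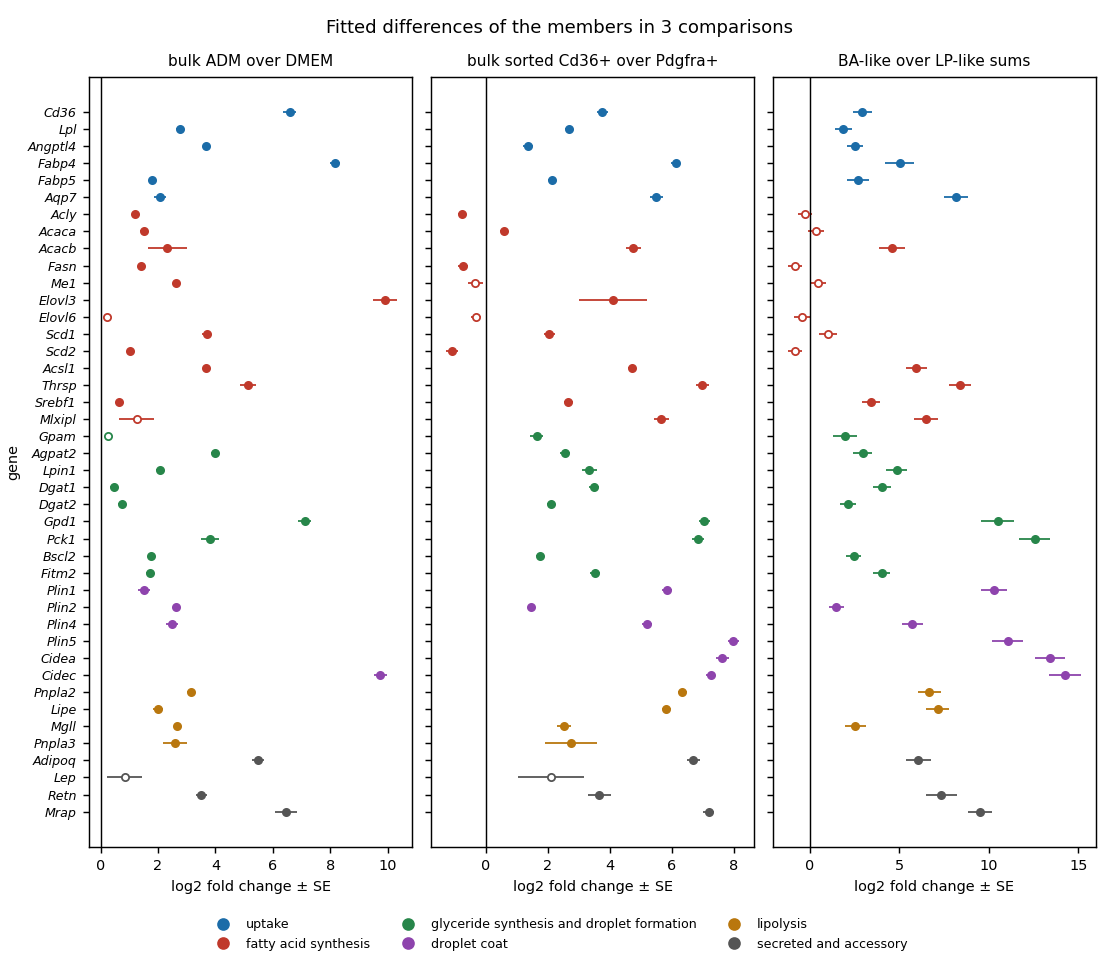
Log2 fold changes with SE of the members in the bulk media (ADM over DMEM), the fresh sorts (Cd36+ over Pdgfra+) and the E16.5 class sums (BA-like over LP-like), filled where the edgeR adjusted p is under 0.05. Acly, Fasn and Scd2 lie right of 0 in the media (1.21, 1.41 and 1.03) and left of 0 in the fresh sorts (-0.76, -0.73 and -1.08). Plin5 and Cidea are not drawn for the media.

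The pathway lists were also counted in ADM. Of 24 oxidation genes 21 were higher, led by Cpt1b (3.67). Cholesterol synthesis had 11 of 20 higher and 2 lower, led by Lss (2.01) and Pmvk (1.51). Its counts differed between the sets in CPM, as did those of all genes. In set A all ADM libraries were above all DMEM libraries for 5 of the 20 genes and below for 11, where 9.68% and 70% of all genes were. In set B they were above for 13 and below for 2, where 17.9% and 15.8% of all genes were. Sqle, for one, stood at 58.6 to 66.9 CPM in ADM set A against 128.5 to 161.6 in DMEM set A, and at 360.6 to 415.4 against 253.1 to 300.95 in set B. Of 12 regulators tested 7 were higher and 1 lower, with Nr1h3 at 3.14, Ppara at 2.53 and Cebpd at -2.09. Of 19 further glyceride and droplet genes 15 were higher and 2 lower, with Gpat3 at 5.07, G0s2 at 3.69 and Acss2, which makes acetyl-CoA from acetate, at 2.24.

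Culture and fresh sorts can be set side by side gene by gene. ADM set A was above both Cd36+ libraries in CPM for 26 members and below for 14, where 8.20% and 83.3% of all genes were, with no test because age and culture differ. Scd1 was at 25217 to 28327 CPM in ADM set A and 110.2 to 148.8 in Cd36+ cells. Plin1 (20.7 to 32.2 against 83.3 to 91.6), Srebf1 (154.1 to 187.1 against 448.4 to 482.4) and Lipe (206.8 to 283.6 against 494.3 to 525.1) were lower in CPM in culture. CPM makes no allowance for composition. The TMM factors of edgeR, which would divide these values, were 0.416 to 0.430 in ADM set A and 1.67 and 1.83 in Cd36+ cells. The order of these genes in CPM thus need not hold under that scaling.

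Among progenitor classes, LP-like cells of later days carried more message for Cd36, Lpl and Fabp4, which are 3 of the 6 uptake genes, than cluster 2 of E12.5. Over 6 sums of cells with the platform as a term, 6 of 36 members tested were higher in LP-like cells and 0 lower by edgeR (0 also at an unadjusted p under 0.05, and 7 higher and 0 lower by DESeq2), where 4.94% and 0.961% of all genes were. Cd36 stood at 40.3 and 75.2 CPM in 10x and 94.2 and 140.8 in ss2, against 0 and 1.22 in cluster 2 (adjusted p = 0.000326). Lpl stood at 50.8, 125.4, 129.9 and 334.8 against 3.93 and 18.2 (log2 fold change 4.32, adjusted p = 0.00366), and Fabp4 at 48.3, 292.5, 16.04 and 74.04 against 1.96 and 0.0481 (adjusted p = 0.00269). Me1, Plin4 and Adipoq also passed, with Plin4 and Adipoq at 0 in cluster 2. Plin4 was also at 0 in both 10x sums of LP-like cells, with 9.47 and 2.29 CPM in ss2. Without the ss2 sum of cluster 2 at E12.5, 0 members passed and 4 had an unadjusted p under 0.05. Class and day cannot be told apart here.

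DF-like cells differed from LP-like cells chiefly in uptake genes. Over 8 sums paired by platform and day, Angptl4 was higher in DF-like cells, at 117.04, 71.5, 172.1 and 275.5 CPM against 18.9, 19.5, 96.6 and 88.1 (1.62 ± 0.25, adjusted p = 0.0025). Cd36, Lpl, Fabp4, Acly and Adipoq were lower, so that 1 of 36 members was higher and 5 lower where 5.12% and 6.14% of all genes were. Lpl stood at 21.6, 43.8, 23.97 and 88.95 against 50.8, 125.4, 129.9 and 334.8 (-1.89 ± 0.20, adjusted p = 0.000317), and Acly at 39.01, 43.8, 294.1 and 199.01 against 84.2, 66.9, 464.3 and 365.95 (-0.83 ± 0.16, adjusted p = 0.00795). In all 4 pairs DF-like cells were below LP-like cells for both genes. Without the 10x pair of E14.5, 3 members passed.

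Late muscle cells carried less message for Fabp5 and for several genes of fatty acid synthesis than early muscle cells. In LM-like against EM-like cells over 10 sums, 2 of 25 members tested were higher and 7 lower by edgeR, where 11.4% and 12.6% of all genes were. Acsl1 was higher, at 18.7, 40.1, 41.3, 172.5 and 159.3 CPM against 2.21, 12.47, 18.3, 37.2 and 29.7 (2.35 ± 0.31, adjusted p = 1.63e-06). Fabp5 was lower, at 205.7, 125.2, 137.6, 52.5 and 97.8 against 391.2, 541.2, 1161, 416.3 and 697.4 (-2.31 ± 0.23, adjusted p = 2.29e-08). Fasn (-1.41, adjusted p = 0.00204), Scd2 (-1.08, adjusted p = 0.000819), Acaca (-1.74), Lpl (-1.52), Scd1 and Agpat2 were lower too, and the phosphatidate phosphatase gene Lpin1 was higher. Scd1, Agpat2 and Lpin1 were at 0 in several sums, and their folds are not given. Without the ss2 sums of E14.5, 4 members passed.

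Across days, few members moved within a class. Each day has its own 10x library and its own ss2 plates, so day and library or plate cannot be told apart. The ss2 plates of a day were joined in each class sum, and at E12.5 they came from different sequencing batches. In EM-like cells Fabp5 was higher with age by 0.45 ± 0.08 log2 units a day (adjusted p = 0.0029, 6 sums), at 391.2, 541.2 and 1161 CPM in 10x and 267.97, 416.3 and 697.4 in ss2 from E12.5 to E16.5. It was the member called of 27 tested, a count near the share of all genes, of which 2.37% were higher and 2.33% lower. In this fit 0 passed without the 10x sum of E12.5. In LP-like cells Fabp4 was higher at E16.5 than at E14.5, at 292.5 against 48.3 CPM in 10x and 74.04 against 16.04 in ss2 (2.62 ± 0.57, adjusted p = 0.00161), and Lipe was lower, at 5.57 against 10.5 and 7.05 against 102.5 (-2.99 ± 0.75, adjusted p = 0.0135). In the ss2 sums of muscle cells of the same days Lipe stood at 48.8 and 3.955 CPM in the EM-like class and at 44.4 and 2.78 in the LM-like class, so that a gap between these days was not confined to LP-like cells. These were 2 of 35 members, where 0.597% and 0.155% of all genes were higher and lower. Beside the Fabp4 value, EM-like cells of the same 10x libraries went from 0 UMIs at E14.5 to 46.6 CPM at E16.5, the day with BA-like cells, and the part of free RNA was not tested. Fabp5 stood at 2556 CPM in 10x BA-like cells of E16.5, and the part of free RNA in its EM-like values was not tested either.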

How the data were processed

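Bulk RNA-seq was deposited by the authors as a table of raw counts per gene for 18 libraries; how its reads were aligned and counted is not given in the sources used here, though the submitters' processing notes list STAR and the mm10 build. The 10x table holds raw UMI counts that the authors made with Cell Ranger, and the ss2 table holds expected counts that the authors estimated with kallisto 0.44.0 and summed per gene. No table was normalized, so expected counts were rounded after they were summed over cells, and 0 columns of per-sample values were left unused.

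Cells with up to 8% mitochondrial counts, at least 4000 genes (ss2) and at most 15000 UMIs (10x) were kept. They were clustered in Seurat 5.3.0 on 2000 features that held none of the members, with 30 principal components and a resolution of 0.8. A cluster took a name where its marker score was at least 0.8 and at least 3 markers were found in at least 5% of its cells. No cluster reached the EP-like (early progenitor) name, so cluster 2 of E12.5, whose best score was 0.779 for that list, took its place. Doublets called by Scrublet, 10 on E14.5 and 8 on each other day, were kept. Of 2931 10x barcodes, 3 occur in more than 1 library.

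Bulk libraries and class sums of at least 20 cells were tested with edgeR 4.0.16 (filterByExpr, TMM, quasi-likelihood test, Benjamini-Hochberg adjustment over all genes tested, called under 0.05) in R 4.3.3, in code tested on simulated data, with DESeq2 1.42.0 as an alternative. Tables and figures were made with Python 3.11.15, scipy 1.17.1, pandas 2.3.3 and matplotlib 3.10.9. Exact intervals and the floor of 3 counts cover counting error only, and total counts per library limit what low genes can show.

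Bulk column names carry no sign for Thy1, so the planned comparisons by Thy1 were replaced by contrasts averaged over the name sets. That fit was chosen over one with joined sets after the counts of both had been seen (36 against 5 members for the media, 39 against 36 for the sorts with Cd36 included). Within the 10x library of E16.5 the members were counted at a 2-fold ratio in place of the planned rule on intervals, also chosen after seeing the data. The fit over both platforms keeps all deposited cells.

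The members, gene lists and markers were chosen with earlier results of these data known. Values by library were given for up to 10 called members of the largest change in each direction and for 15 set genes in the bulk comparisons, and up to 4 called genes were named per pathway list, of which some are not reported here; the remaining members are named to complete their role groups, chosen after their values were seen. Promoters came from a RefSeq table of GRCm38.p6, in which 30 members matched with 43 promoters.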

Additional observations from a re-analysis of the deposited data

Results flagged for a closer look

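The spread within groups of 4 to 10 libraries was checked by Dixon's ratio for each member, and 2 groups exceeded the 95% critical value, where chance gives about 1 in 20 groups, or 6.3 of those tested. Fasn stood at 208.9 CPM in replicate 2 of freshly sorted Pdgfra+ set B, against 151.4 to 155.8 CPM in the other Pdgfra+ libraries, a gap of 0.924 of the range. Fitm2, which helps droplets bud from the endoplasmic reticulum, stood at 23.63 CPM in replicate 1 of the same set against 14.72 to 16.16 CPM, a gap of 0.839 of the range.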

How the results depend on the processing

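For the media, 36 members were called with the name sets as separate means, 5 with the sets joined, and 0 with the sets joined and the replicate number as a block, where 21 had an unadjusted p under 0.05. Over all genes these fits called 6207, 685 and 60. Without 1 library at a time the first fit called 35 to 37 members, and for the fresh sorts 37 to 40 in place of 39, counts that include the sorting marker Cd36. DESeq2 called 39 members for the media and 39 for the sorts, and an adjusted p under 0.01 with a log2 change over 1.5 left 30 and 31. With library totals alone as scaling, Dgat1 reversed in the media to -0.0504 (log2). The replicate block gave 36 members for the media and 40 for the sorts. The deviations of same-numbered libraries correlated between -0.048 and 0.021 in culture and at -0.024, 0.074 and 0.177 in the sorts. These values cannot exclude that the numbers pair some libraries. In the fresh sorts, Scd2 was lower and the haemoglobin gene Hba-a2 higher in replicate 1 of each sort, and how many genes did so was not counted.

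In single cells, LP-like against cluster 2 gave 6 members and 0 to 7 with 1 sum left out, DF-like against LP-like 6 and 3 to 6, LM-like against EM-like 9 and 4 to 10, and EM-like cells across days 1 and 0 to 3, with 2 when low genes were kept. In LP-like cells across days DESeq2 called 1 member in place of 2, and no sum could be left out there for want of residual degrees of freedom. In the 10x library of E16.5, 27 members were higher and 2 lower in BA-like cells by exact intervals that exclude a ratio of 1, in place of 29 and 4 at 2-fold. Over all genes DESeq2 called 9.83% in place of 5.90% for LP-like against cluster 2, 6.16% in place of 4.70% (900 in place of 587) for EM-like cells across days, and 21.8% in place of 43.1% for BA-like against LP-like cells over both platforms. Apart from the exceptions named, the member counts under the settings run for resolution, doublets, mitochondrial limit, low-count filter and RLE scaling stayed within 1.5 times of those reported. The cause of these shifts was not tested. Of single-gene values, 2596 kept direction and side of the threshold, 8.01% kept direction and lost the call, and 1 reversed. Depth limits genes with few UMIs, and the pooling of embryos within a day leaves animal spread unmeasured.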

Other observations

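Thy1, the gene of the sorting marker, did not follow the spelling of the bulk column names in 1 direction over culture and fresh sorts. It stood at 0.992 to 2.38 CPM in ADM set A and 25.6 to 32.3 in ADM set B, at 5.97 to 9.03 in DMEM set A and 54.7 to 64.8 in DMEM set B, but at 86.2 to 109.3 in fresh Pdgfra+ set A and 4.77 to 5.87 in fresh Pdgfra+ set B. Fresh Cd36+ cells had 5.11 to 6.77 CPM. Ucp1, the uncoupling protein of brown fat, stood at 822.9 to 871.7 CPM in ADM set A and at 0 counts in the set B cultures, at 0.0566 to 0.513 CPM in DMEM set A, at 205.5 to 259.95 in fresh Cd36+ cells and at 0.808 to 6.23 in fresh Pdgfra+ cells. The 9 LP-like markers summed to 893.8 to 1005 CPM in ADM set A, 12430 to 13780 in ADM set B, 7676 to 12220 in DMEM set A, 13450 to 14700 in DMEM set B, 13560 to 19590 in fresh Pdgfra+ cells and 593.1 to 636.3 in fresh Cd36+ cells.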
